A study of Mus musculus with 36 samples.

Results

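The IL-6 family receptors and the STAT3 pathway were followed through liver regeneration by 8 genes, which were the rows of the count tables carrying the symbols Il6ra, Il6st, Osmr, Lifr, Jak2, Stat3, Socs3 and Pim1. All 8 were found among 21955 listed symbols and all 8 passed the filter on low counts, which left 13436 tested genes. The study took liver RNA of C57BL/6JN mice that were young (4 months) or old (18 months), before regeneration and at time points labelled 48, 72, 96, 120 and 240, with 3 libraries in each of the 12 groups. The labels give these numbers without a unit, do not say how regeneration was induced, and name no genotype, agent or sex. The labels call the 3 libraries biological replicates without tying them to animals. The p-values of the main fit set each difference against a spread between libraries that was estimated over all 12 groups together. They do not rest on the 3 libraries of a group alone, nor on a known number of animals.

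Cytokines of the IL-6 family act through receptors that share the signal-transducing chain gp130, the product of Il6st. Il6ra encodes the chain that binds IL-6 and joins it to gp130, whereas the products of Osmr and Lifr pair with gp130 to receive oncostatin M and leukemia inhibitory factor. Binding activates JAK kinases on the receptor tails, which phosphorylate STAT3, and STAT3 then enters the nucleus and induces genes that include its own inhibitor Socs3 and the kinase gene Pim1. In the liver this pathway is known for the priming of hepatocytes after tissue loss and for the acute-phase response. RNA levels show the amounts of these transcripts and not the phosphorylation of STAT3.

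Total counts ran from 2328233 to 6034446 per library (median 4439170). Levels are given as CPM, which are counts divided by library totals adjusted by the TMM method, and as CPM per kb of exon where genes are compared with each other. The hepatocyte genes Alb (4060 to 10900 CPM) and Hnf4a (1060 to 1590 CPM) were abundant in every library. In 12 libraries, 1 in each group, 4 Y-linked genes summed to between 176.7 and 321.4 CPM, and in the remaining libraries to at most 0.2124 CPM. Because each group held 1 such library, this split was balanced over all comparisons. Replicate 2 of old 48 stood apart, with the highest Osmr, Stat3, Socs3 and Pim1 level and the lowest Il6ra and Lifr level of the 36 libraries, and the values of the 8 genes that it moves are given with and without it.

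Per kb of exon, the receptor chains spanned the whole range of levels among the 8 genes in young liver before regeneration. Lifr was highest at 71.9 ± 8.33 CPM per kb (SD, n = 3) and Il6st next at 53.0 ± 2.00. Socs3 (14.7 ± 6.06), Il6ra (13.99 ± 6.17) and Stat3 (12.7 ± 1.88) lay close together, and their differences were smaller than the SD of the first 2. Pim1 followed at 9.29 ± 2.25 CPM per kb and Jak2 at 6.10 ± 0.343, and Osmr was lowest at 1.01 ± 0.163. In old liver before regeneration Il6st (56.8 CPM per kb) and Lifr (51.2) led, and Osmr was again lowest at 1.36. These are levels per length of the GENCODE vM21 exons on GRCm38.

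The spread between libraries of the same group differed widely among the 8 genes, which sets what each could show. On the scale of log2(CPM + 1), the SD within groups was 0.19 for Jak2, 0.21 for Il6st and 0.29 for Stat3. It was 0.39 for Il6ra, 0.41 for Osmr and 0.42 for Lifr, and reached 0.54 for Pim1 and 0.63 for Socs3. From the lowest to the highest of the 36 libraries, Socs3 spanned 8.81-fold and Osmr 8.33-fold, whereas Il6st spanned 2.18-fold and Jak2 2.06-fold. The fewest counts behind any value were 24, for Osmr in young 240 replicate 1.

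**Figure D1:**
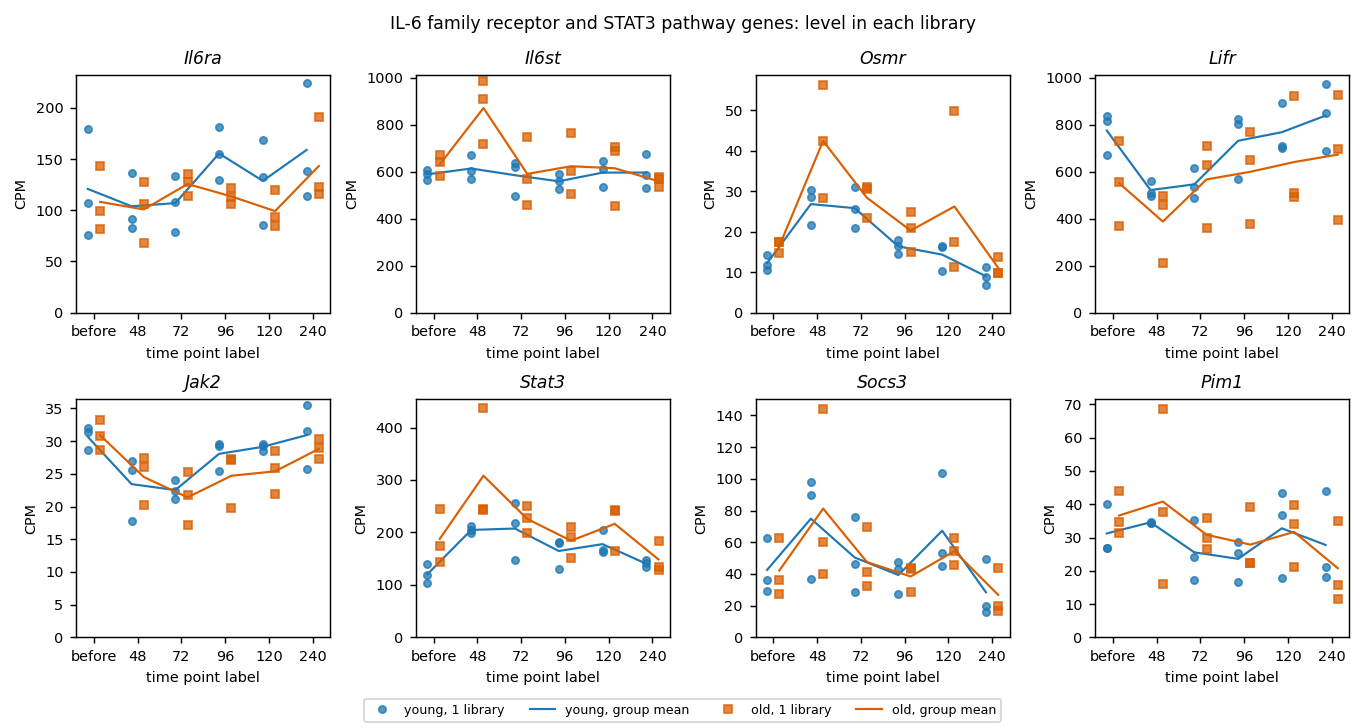
Level of each of the 8 genes in CPM (vertical axes, each from 0) at the 6 time point labels, spaced evenly, with 1 symbol per library (circles young, squares old) and lines through the group means of 3 libraries. Group means of Osmr and Stat3 are highest at 48 and 72 in either age, and those of Jak2 are lowest there. In old liver Jak2 at 96 (24.7 CPM) is close to 48 (24.5 CPM), and replicate 2 (437 CPM) raises the old 48 mean of Stat3. The old 48 mean of Il6st (870.6 CPM) stands above every other group mean of that gene.

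Among the receptors, Osmr varied most between groups. Its gene lies on chromosome 15 (6813577 to 6874969, minus strand, GRCm38). In young liver Osmr measured 14.4, 10.4 and 11.9 CPM in the 3 libraries before regeneration, 21.6, 30.3 and 28.6 CPM at 48, and 20.8, 25.5 and 31.1 CPM at 72. All libraries at 48 and 72 lay above all libraries before. The level was 14.6, 16.5 and 18.0 CPM at 96, 10.3, 16.1 and 16.6 CPM at 120, and 6.76, 11.4 and 8.83 CPM at 240, the lowest group mean of the series (8.99 ± 2.31 CPM). In old liver Osmr measured 17.4, 14.7 and 17.3 CPM before and 42.5, 56.3 and 28.4 CPM at 48, the highest group mean (42.4 ± 13.9 CPM). It measured 23.4, 31.1 and 30.6 CPM at 72, 24.9, 15.1 and 20.8 CPM at 96, and 13.6, 9.87 and 9.77 CPM at 240. At 120 the old libraries were 17.6, 49.8 and 11.3 CPM, so that 1 library carried most of that mean.

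Il6st, on chromosome 13 (112464070 to 112510086, plus strand), changed little except in old liver at 48. In young liver its group means lay between 558.7 and 613.2 CPM at all 6 time points. In old liver the libraries measured 580, 641 and 670 CPM before and 986, 908 and 718 CPM at 48. All 3 libraries of old 48 lay above those of old before, which was the next group in order. That gap of 240 CPM between group means was the only one, over the ordered groups of all 8 genes, at which neighbouring groups did not overlap. From 72 to 240 the old group means of Il6st were between 559.1 and 622.9 CPM.

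Lifr, on chromosome 15 (7090614 to 7197489, plus strand), was lowest at 48. In young liver it measured 672, 836 and 817 CPM before, and 509, 562 and 495 CPM at 48, without overlap. In old liver it measured 369, 730 and 556 CPM before, and 457, 210 and 496 CPM at 48. These old groups overlapped, and the old libraries were spread more widely than the young. Group means of Lifr ran from 387.7 ± 154.9 CPM in old 48 to 838.6 ± 143.1 CPM in young 240. Il6ra, on chromosome 3 (89864059 to 89913196, minus strand), had group means from 99.2 ± 18.0 CPM (old 120) to 159 ± 58.3 CPM (young 240), and in its order of 12 groups every neighbouring pair overlapped. Of its exon length 2.8% is shared with Gm42809 on the opposite strand, whose reads cannot be told apart where strand was not used.

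Stat3, which encodes the transcription factor (chromosome 11, 100885098 to 100939540, minus strand), measured 139, 120 and 103 CPM in young liver before. At 48 the 3 young libraries were nearly equal at 211, 198 and 205 CPM, and at 72 they were 219, 147 and 257 CPM. Neither group overlapped with before. Young Stat3 was then 183, 131 and 181 CPM at 96, 166, 205 and 162 CPM at 120, and 147, 141 and 133 CPM at 240. In old liver it measured 245, 174 and 144 CPM before and 242, 437 and 245 CPM at 48. Old before overlapped with old 48, because replicate 1 before was as high as replicates 1 and 3 at 48. The remaining old levels were 227, 250 and 200 CPM at 72, 211, 150 and 191 CPM at 96, 241, 243 and 165 CPM at 120, and 183, 134 and 128 CPM at 240. Group means ran from 120.6 CPM in young before to 308.2 CPM in old 48.

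Jak2, which encodes the kinase (chromosome 19, 29251828 to 29313080, plus strand), moved the opposite way. Young libraries measured 28.7, 31.3 and 32.0 CPM before, 25.6, 26.9 and 17.7 CPM at 48, and 24.1, 22.4 and 21.1 CPM at 72. Old libraries measured 28.6, 30.8 and 33.3 CPM before, 20.2, 27.4 and 26.0 CPM at 48, and 25.2, 21.8 and 17.2 CPM at 72. In either age the libraries at 48 and 72 all lay below those before, and in old liver the libraries at 96 and 120 did so too. By 240 the young group mean was 30.9 ± 4.92 CPM, beside 30.7 ± 1.73 CPM before, and the old one 28.8 ± 1.56 CPM, beside 30.9 ± 2.33 CPM before.

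The STAT3 target genes Socs3 and Pim1 were the most variable within groups. Socs3 encodes the inhibitor that binds gp130 and the JAKs (chromosome 11, 117966079 to 117970047, minus strand). In young liver it measured 62.4, 29.1 and 36.3 CPM before and 98.2, 89.8 and 36.7 CPM at 48. In old liver it measured 62.9, 36.2 and 27.6 CPM before and 60.0, 144 and 39.9 CPM at 48. Each group at 48 overlapped with before. Its group means were lowest at 240, where young liver had 28.5 ± 18.1 CPM and old liver 26.8 ± 14.9 CPM. Pim1, a serine/threonine kinase gene (chromosome 17, 29490753 to 29496112, plus strand), measured 40.0, 26.9 and 26.9 CPM in young liver before and 34.8, 34.4 and 34.5 CPM at 48. In old liver Pim1 measured 43.9, 34.6 and 31.3 CPM before, 37.6, 68.7 and 16.2 CPM at 48, and 35.0, 15.7 and 11.7 CPM at 240. Antisense Gm26885 shares 14.52% of the Pim1 exon length, and without strand its reads cannot be told apart from Pim1.

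STAT3 binds DNA at palindromes of the form TTCNNNGAA, a pattern that reads the same on either strand. Over 32851 RefSeq start sites, 2306 (7.02%) held this pattern in the 250 bases before the start. Of the 8 genes, Socs3 alone held a match, TTCTTAGAA at -154 to -146 from the start site, and no match was found before the start sites of Il6ra, Il6st, Osmr, Lifr, Jak2, Stat3 and Pim1. The stretch of Socs3 that carries it and the window before Stat3, which carries none, are shown for comparison, 5′ to 3′ on the minus strand of GRCm38.p6 from RefSeq, with the pattern in capitals. For Socs3 the stretch is chr11:117969452-117969616, the part of the window in no GENCODE exon, and for Stat3 it is chr11:100939541-100939790.
Socs3: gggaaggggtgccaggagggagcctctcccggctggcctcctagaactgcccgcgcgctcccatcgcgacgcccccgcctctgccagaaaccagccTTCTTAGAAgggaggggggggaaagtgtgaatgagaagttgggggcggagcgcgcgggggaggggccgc
Stat3: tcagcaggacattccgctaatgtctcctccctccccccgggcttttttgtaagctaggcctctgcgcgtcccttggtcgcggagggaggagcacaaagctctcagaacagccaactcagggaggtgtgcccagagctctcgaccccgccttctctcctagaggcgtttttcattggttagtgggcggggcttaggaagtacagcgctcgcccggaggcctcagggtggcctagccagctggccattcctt
A match describes letters in this window and does not show that STAT3 was bound there.

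Each later time point was then compared with before within each age, which asks how the pathway moved during regeneration. Osmr and Stat3 were higher at 48 and 72 in young liver and at 48 in old liver, and Jak2 was lower at 72 in old liver. No other change of the 8 genes against before passed an adjusted p under 0.05 in edgeR's quasi-likelihood test. In young liver that made 2 of the 8 genes called at 48, where 22.1% of all tested genes were called, and 2 at 72, where 17.5% were. In old liver 2 were called at 48, beside 24.3% of all tested genes, and 1 at 72, beside 12.6%. A fit of only old before and old 48 called 225 of 12328 genes and 0 of the 8, against 3269 of 13436 genes in the fit of all libraries. None of the 8 was called at 96, 120 or 240, where the share of all genes called was 1.44%, 0.595% and 0.26% in young and 6.85%, 4.05% and 0.141% in old liver. By edgeR's unadjusted p under 0.05 only Stat3 at young 120 stood among these, and DESeq2 called none of them. The shares at 48 and 72 are close to the background, so the counts show nothing particular to the pathway. The 5 comparisons of each age share the same 3 libraries before.

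**Figure D2:**
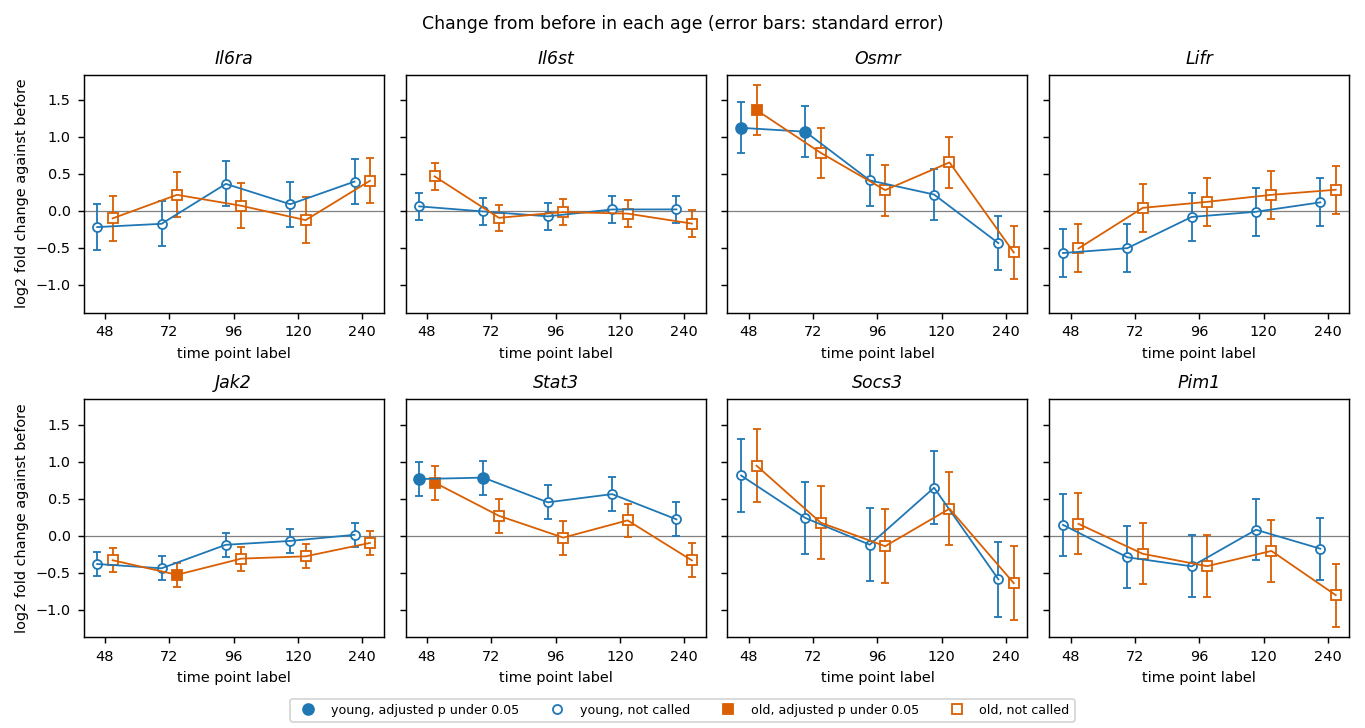
Log2 fold change of the 8 genes against before (vertical axes) at each later time point label, with circles for young and squares for old liver, error bars of 1 standard error, and filled symbols where the adjusted p was under 0.05. The filled symbols are Osmr and Stat3 at 48 and 72 in young liver and at 48 in old liver, and Jak2 at 72 in old liver.

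In young liver Osmr rose by 1.12 ± 0.34 on the log2 scale (SE) at 48, a 2.18-fold change (adjusted p 0.0183), and by 1.07 ± 0.34 at 72, a 2.1-fold change (adjusted p 0.0312). The call at 48 was lost without young before replicate 2 (1.02, adjusted p 0.0729) or 3 (1.09, 0.0568), and without young 48 replicate 2 (1.03, 0.0537) or 3 (1.08, 0.0565). The call at 72 was lost without young before replicate 1 (1.203, adjusted p 0.0514), 2 (0.97, 0.103) or 3 (1.06, 0.0826), without young 72 replicate 2 (1.07, 0.0738) or 3 (0.94, 0.0853), and over the libraries without Y-linked transcripts (1.06, 0.0752). At 96, 120 and 240 its log2 changes were 0.41, 0.22 and -0.44, none called. The single library with Y-linked transcripts in each group gave a difference of 0.95 at 48 and 1.06 at 72, and the remaining pairs gave 1.13 and 0.99.

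In old liver Osmr rose by 1.36 ± 0.33 on the log2 scale at 48, a 2.57-fold change (adjusted p 0.0042). This call was kept without each of the 6 libraries in turn (1.13, adjusted p 0.028, without old 48 replicate 2), and was lost in a fit of only the 2 groups compared (1.38, adjusted p 0.0535). At 72 Osmr was 0.78 ± 0.34 above before (adjusted p 0.123), and a fit of only old before and old 72 called it (0.81, adjusted p 0.0339). At 120 Osmr was 0.65 above before, with 1 of 3 libraries high. Whether the rise differed between the ages was tested by the interaction of age and time, which called none of the 8 genes.

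Stat3 in young liver rose by 0.76 ± 0.23 on the log2 scale at 48 (1.7-fold, adjusted p 0.0166) and by 0.78 ± 0.23 at 72 (1.72-fold, adjusted p 0.0187). The call at 48 was lost without young before replicate 3 (0.66, adjusted p 0.0833). The call at 72 was lost without young before replicate 2 (0.78, adjusted p 0.0536) or 3 (0.69, 0.0833) and without young 72 replicate 1 (0.75, 0.0629) or 3 (0.62, 0.0815). At 120 Stat3 was 0.56 above before and not called.

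In old liver Stat3 rose by 0.72 ± 0.23 on the log2 scale at 48 (1.64-fold, adjusted p 0.0233), with overlapping libraries. Without old 48 replicate 2 the change was 0.41 (adjusted p 0.216). The call was also lost without old before replicate 2 (0.66, adjusted p 0.0848) or 3 (0.58, 0.122) and in a fit of only the 2 groups compared (0.73, 0.214). Between the libraries with Y-linked transcripts Stat3 differed by -0.01, and between the remaining ones by 1.04. A fit without the libraries holding Y-linked transcripts gave 1.11 (adjusted p 0.00374).

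Jak2 fell by 0.53 ± 0.16 on the log2 scale at 72 in old liver (1.45-fold, adjusted p 0.0294). With total-count scaling, which shifted the median log2 change of all genes at old 72 by 0.12, the value was -0.41 (adjusted p 0.12). The call was also lost with no filter on low counts (-0.48, 0.0964), over libraries without Y-linked transcripts (-0.43, 0.0918), in a fit of only the 2 groups compared (-0.51, 0.12), and without old before replicate 2 (-0.53, 0.0761) or 3 (-0.45, 0.146) or old 72 replicate 2 (-0.54, 0.0664) or 3 (-0.39, 0.18). The other differences of Jak2 against before at 48 and 72 did not pass, at -0.39 (adjusted p 0.0859) for young 48, -0.44 (0.0562) for young 72 and -0.33 (0.127) for old 48. With a term for Y-linked transcripts Jak2 was called at young 72 (-0.44, adjusted p 0.0466).

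Il6st in old liver was 0.47 ± 0.18 above before at 48 on the log2 scale, without overlap, and missed the threshold (adjusted p 0.0564). It was called with total-count scaling (0.49, adjusted p 0.0318), with a term for Y-linked transcripts (0.48, 0.0316), by DESeq2 (0.47, 0.0314) and without old 48 replicate 3 (0.59, 0.0241), and was 0.46 (0.104) without replicate 2. In young liver the difference of Il6st at 48 was 0.06 (adjusted p 0.847). Lifr was 0.57 ± 0.32 below before at young 48 without overlap (adjusted p 0.22) and 0.51 below at old 48, and a fit of only young before and young 48 called it (-0.56, 0.02). Socs3 was 0.81 ± 0.49 above before at young 48 (adjusted p 0.251) and 0.94 ± 0.49 at old 48 (adjusted p 0.158). Over the libraries without Y-linked transcripts Socs3 at 48 was 1.54 above before in young (adjusted p 0.0525) and 1.53 in old liver (0.0367, called), and between the libraries with them it was -0.75 and -0.07. Without old 48 replicate 2 the difference of Socs3 at old 48 was 0.27 (adjusted p 0.752). The same omission took Pim1 at old 48 from 0.16 to -0.42 (adjusted p 0.81 and 0.529), Lifr from -0.51 to -0.18 (0.256 and 0.745) and Il6ra from -0.10 to 0.14 (0.836 and 0.796). Jak2 at old 48 went from -0.33 to -0.39 (adjusted p 0.127 and 0.135). Pim1 was 0.81 ± 0.42 below before at old 240 (adjusted p 0.696), and Il6ra was called in no comparison.

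In bulk tissue, fewer cells of a type and less RNA per cell cannot be told apart, and marker levels of other cell types moved at the same time points. The summed level of 8 Kupffer cell and monocyte markers, all found, was 477 to 619 CPM in old before and 120 to 423 CPM in old 48, lowest in replicate 2, and in young liver it was 331 to 434 CPM before and 251 to 362 CPM at 48. The sum of 6 neutrophil markers was 1.04 to 1.94 CPM in young before and 2.96 to 8.01 CPM in young 48, and 1.37 to 20.9 CPM in old before and 7.77 to 31 CPM in old 48, again with replicate 2 at the extreme. At young 48, where the range of this Kupffer cell and monocyte sum overlapped with before, 0 of the 7 tested markers were called. In old liver the ranges of that sum did not overlap, and the calls of these 7 markers at old 48 are not reported here. There 1 of the 2 tested neutrophil markers was called higher, beside 12.2% of all tested genes. The sum of 6 stellate cell and fibroblast markers was 285 to 411 CPM in young before and 286 to 540 CPM in young 72. Of these 6, 2 were called higher at young 72, beside 9.26% of all tested genes. The sum of 5 endothelial markers was 303 to 350 CPM in young before and 166 to 250 CPM in young 48. Of these 5, 2 were called lower at young 48, beside 9.88% of all tested genes. The sum of 4 cholangiocyte markers, all found, was 35.8 to 42.1 CPM in young before and 28.8 to 274 CPM in young 72. Of the 4, 2 were tested, and both were called higher at young 72, beside 9.26% of all tested genes. In old liver this sum was 29 to 51.8 CPM before and 48.5, 202 and 47.9 CPM in the 3 libraries at 48. Krt19, Krt7 and Epcam reached at most 9.24, 1.34 and 2.92 CPM in any library. The remaining marker, Spp1, therefore carried most of the sums of 274 and 202 CPM. The sum of 5 hepatocyte markers was 16200 to 22700 CPM in old before and 14200 to 19000 CPM in old 48, again lowest in replicate 2. Of these 5, 3 were called lower at old 48, beside 12.1% of all tested genes. In young liver the hepatocyte sum was 21700 to 23700 CPM before and 17700 to 18500 CPM at 48, with 0 called. Of the defining markers, Adgre1, Clec4f, Pecam1, Stab2, Lrat and Col1a1 were above 0 in all libraries, and S100a8 and S100a9 were at 0 in 1 library each, and of the cholangiocyte markers Krt7 was at 0 in 5 libraries and Epcam in 1. The part of these cells in the changes of Osmr, Stat3 and Jak2 was not tested.

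The series was designed to set old liver against young liver, which was done here for single time points and for their mean difference. Averaged over time points, Stat3 was higher in old liver by 0.31 ± 0.09 on the log2 scale (1.24-fold, adjusted p 0.0423), with a positive difference at all 6 time points. It was the 1 gene of the 8 called, where 6.13% of all tested genes were called. This call was lost without any 1 of 22 of the 36 libraries (0.26 to 0.35 over all 36 such fits, adjusted p up to 0.0792), with no filter on low counts (0.31, adjusted p 0.059), with a term for Y-linked transcripts (0.32, 0.136) and over libraries without them (0.31, 0.0811). In the average over time points the difference of Stat3 was 0.28 between libraries with Y-linked transcripts and 0.30 between the others. At single time points it was -0.361 at 72 and -0.007 at 120 between libraries with Y-linked transcripts. Between the others it was -0.099 at 96 and -0.065 at 240, and the remaining differences in both parts were positive.

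Osmr was higher in old liver by 0.45 ± 0.14 on the log2 scale on average, also at all 6 time points, and missed the threshold (adjusted p 0.0529). It was called with total-count scaling (0.46, adjusted p 0.0334), with the replicate number as a block (0.45, 0.0499), by DESeq2 (0.45, 0.0294) and without any 1 of young 72 replicate 3 (0.48, 0.0483), young 240 replicate 2 (0.48, 0.0462), old 48 replicate 3 (0.48, 0.0276), old 96 replicate 2 (0.48, 0.0439), old 120 replicate 1 (0.48, 0.0423) or old 120 replicate 3 (0.51, 0.00953). Osmr stayed uncalled in 35 of 44 alternatives. Over all 44 the averaged difference ran from 0.312 to 0.511, with an adjusted p up to 0.161. The difference of Osmr was -0.019 at 72 between libraries with Y-linked transcripts and -0.028 at 240 between the others. At the remaining time points it was positive in both parts. Lifr was lower in old liver by 0.29 on average (adjusted p 0.209), with old 72 the exception at 0.05 above young.

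At single time points none of the 8 genes was called between the ages by edgeR, where 0.0595% of all tested genes were called before and 11.4% at 48. A fit of only old 48 and young 48 called 1 of 12208 genes, against 1530 of 13436 in the fit of all libraries. That share was 0% at 72, 0.402% at 96, 0.0819% at 120 and 0.0149% at 240. At an unadjusted p under 0.05 stood Stat3 before, Il6st, Osmr and Stat3 at 48, and Osmr at 120, and DESeq2 called Il6st at 48. Osmr at 120 was 0.86 ± 0.34 higher in old liver (adjusted p 0.364), with overlap and with old 120 replicate 2 high at 49.8 CPM. Over 15 alternatives this difference of Osmr ran from 0.018 to 1.241 and was never called. Before regeneration Stat3 was 0.64 ± 0.23 higher in old liver (adjusted p 0.483), with all old libraries above all young ones. At 48 Il6st was 0.51 ± 0.18 higher in old liver without overlap (adjusted p 0.0647). Il6st was called at 48 with a term for Y-linked transcripts (0.59, adjusted p 0.0247), by DESeq2 (0.50, 0.0382) and without old 48 replicate 3 (0.63, 0.0253). Stat3 at 48 was 0.59 ± 0.23 higher in old liver (adjusted p 0.0948), and without old 48 replicate 3 it was called (0.73, 0.0423). Without old 48 replicate 2, the highest library, the difference of Stat3 was 0.24 (adjusted p 0.663). That omission took Osmr at 48 from 0.67 (adjusted p 0.198) to 0.395 (0.642), Il6st to 0.46 (0.201), Lifr from -0.43 (0.442) to -0.14 (0.894), Socs3 from 0.12 (0.915) to -0.60 (0.619) and Pim1 from 0.24 (0.77) to -0.38 (0.73). It also took Il6ra from -0.042 (0.955) to 0.166 (0.867) and Jak2 from 0.064 (0.848) to -0.032 (0.963).

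**Figure D3:**
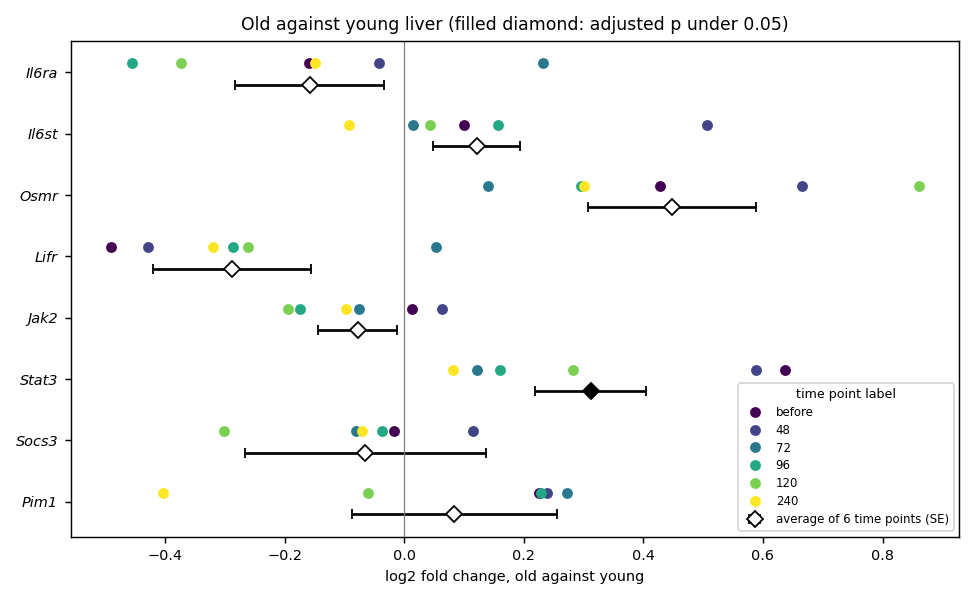
Log2 fold change of old against young liver for the 8 genes, with 1 dot for each time point label and a diamond with 1 standard error for the average of the 6. All 6 dots of Stat3 and Osmr lie above 0, and the filled diamond of Stat3 (0.31) marks the only adjusted p under 0.05.

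The interaction of age and time, a single test of whether the course from before differed between the ages, called 0 of the 8 genes in edgeR, where 2.91% of all tested genes were called. At an unadjusted p under 0.05 the number was also 0, and DESeq2 called 0. A difference in course was therefore not detected with 3 libraries per group, which does not show that the courses were equal.

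Within groups, libraries of the same age and time point differed in related ways. Over 36 libraries, as deviations from the group mean of log2(CPM + 1), Pearson's r was 0.64 between Socs3 and Pim1, 0.58 between Stat3 and Pim1 and 0.58 between Stat3 and Socs3. Without old 48 replicate 2 these were 0.56, 0.47 and 0.48. The receptor pair Il6st and Lifr gave 0.44 (0.54 without that library), and Osmr and Jak2 gave -0.47 (-0.57). Il6ra and Pim1 gave -0.51 (-0.44). These are descriptions over libraries that share their scaling and their tissue composition, 28 pairs of genes were computed, and no p is given.

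**Figure D4:**
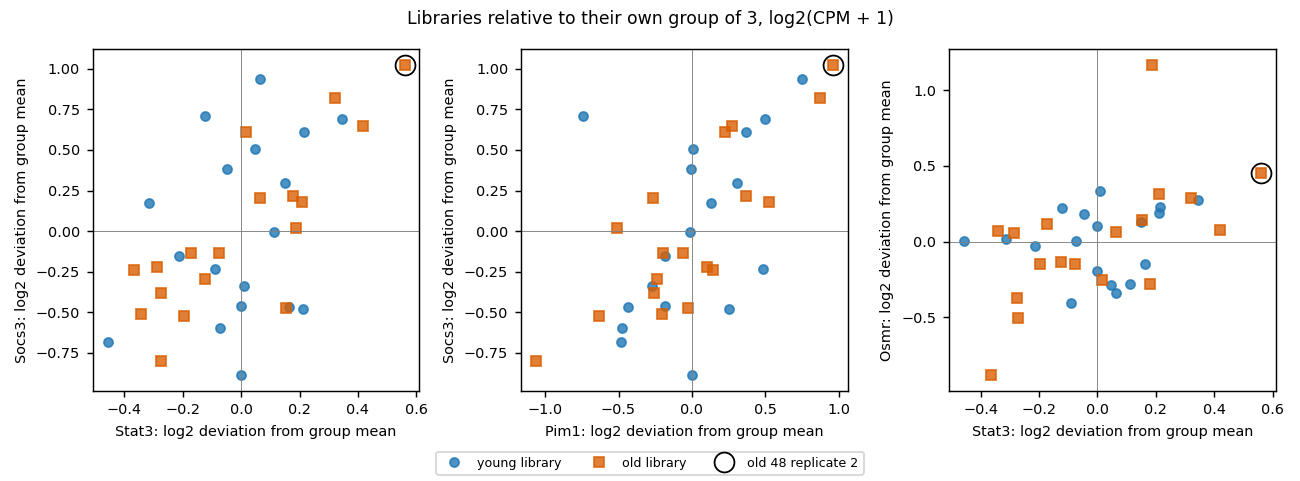
Deviation of each of 36 libraries from the mean of its group of 3, in log2(CPM + 1), for Stat3 and Socs3, Pim1 and Socs3, and Stat3 and Osmr, with circles for young and squares for old libraries and a ring around old 48 replicate 2. The ringed library lies at the upper right corner of the plots with Socs3, where r over all libraries is 0.58 with Stat3 and 0.64 with Pim1.

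Over the 12 group means, Osmr followed Stat3 (r 0.92) and ran against Lifr (-0.87) and Jak2 (-0.83), while Socs3 and Pim1 gave 0.71. Among 8690 genes with a mean of at least 10 CPM, the 2 genes most like each member over these 12 means were Kat5 (0.97) and Mmp14 (0.96) for Osmr, Pld1 (0.96) and Gpr39 (0.95) for Stat3, and Ube2d3 (0.98) and Fam126b (0.98) for Jak2. For the remaining receptors they were Ces3a (0.97) and Abca8a (0.97) for Lifr, Nf1 (0.95) and Fndc4 (0.94) for Il6st, and Idnk (0.89) and Marveld1 (0.89) for Il6ra. For the targets they were Ang (0.88) and Fgb (0.86) for Socs3 and Nedd1 (0.90) and Chsy3 (0.87) for Pim1. These values describe 12 points per gene, and nothing about shared control follows from them.

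The ligands of these receptors were scarcely detected in the tissue. Of 10 genes for ligands and their partner chains, 2 passed the filter on low counts. Il6 had 24 counts in all 36 libraries together and was at 0 in 21 of them, Il11 had 25 counts and was at 0 in 20, and Osm, the gene of oncostatin M, had 25 counts and was at 0 in 17. Lif (98 counts in all), Cntf (180), Il27 (45) and Ebi3 (164) were also too low to test. Ctf1, which encodes cardiotrophin-1, ranged from 1.72 to 6.11 CPM and was called in no comparison.

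Clcf1, which encodes a cardiotrophin-like cytokine, was the only ligand gene called, in 1 comparison. It measured 0.832, 0.497 and 1.21 CPM in young before and 4.01, 6.08 and 1.78 CPM in young 72, without overlap, and rose by 2.19 ± 0.67 on the log2 scale (4.56-fold, adjusted p 0.0238). Clcf1 had only 401 counts in all 36 libraries together, so this fold change rests on levels before that are near the floor. Its highest level in any library, 12.2 CPM, lay outside these groups. The call was lost without young before replicate 1 (2.17, adjusted p 0.0756) or 2 (1.94, 0.0875) and without young 72 replicate 1 (2.19, 0.0601) or 2 (1.77, 0.123). Of the other receptor chains, Il11ra1 and Il27ra were tested and called in no comparison. Both had an unadjusted p under 0.05 at old 48, where Il11ra1 was 0.50 and Il27ra 1.01 below before on the log2 scale (adjusted p 0.118 and 0.0731). Cntfr (150 counts in all) and Il31ra (19) were too low to test.

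Of 9 further JAK and STAT genes 8 were tested, and Stat4 was too low. Jak1, the kinase most tied to gp130, was level in young liver, at 136, 136 and 140 CPM before and 124, 143 and 138 CPM at 48. In old liver Jak1 measured 145, 128 and 115 CPM before and 217, 173 and 182 CPM at 48, without overlap, and rose by 0.56 on the log2 scale (adjusted p 0.00199). That call was lost in a fit of only the 2 groups compared (0.57, adjusted p 0.128). Old liver at 48 was also above young by 0.50 (adjusted p 0.00815), which was lost without young 48 replicate 1 (0.43, adjusted p 0.0655) or old 48 replicate 1 (0.39, 0.0526), over libraries without Y-linked transcripts (0.40, 0.08) and in a fit of only the 2 groups (0.52, 0.212). The interaction did not call Jak1 or any other gene of this list.

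Jak3, a kinase known from lymphocyte cytokine receptors, rose in young liver from 24.8, 19.6 and 16.2 CPM before to 35.8, 45.5 and 37.5 CPM at 48 (0.96, adjusted p 0.00171) and 42.1, 35.7 and 47.1 CPM at 72 (1.04, adjusted p 0.00182), without overlap. In old liver Jak3 rose from 36.9, 34.6 and 23.0 CPM to 42.0, 59.8 and 54.6 CPM at 48 (0.73, adjusted p 0.0136). That call was lost without old before replicate 3 (0.57, adjusted p 0.0925) or old 48 replicate 2 (0.65, 0.0539) and in a fit of only the 2 groups (0.74, 0.13). Averaged over time points Jak3 was 0.37 higher in old liver (adjusted p 0.00963). The ranges of the summed T and B cell markers (6 of 6 found) overlapped between before and 48 in either age. They were 2.98 to 8.96 CPM in young before and 2.59 to 4.58 CPM in young 48. In old liver they were 6.62 to 14.7 CPM before and 0.445, 0.81 and 6.75 CPM in the 3 libraries at 48. That overlap rested on old 48 replicate 3 alone, and the other old 48 libraries lay below every old library before. Of the 6 markers 2 were tested, with 0 called at young 48 and at young 72, and their calls at old 48 are not reported here. Of these markers Cd3e was at 0 in 10 libraries and Cd79a in 4, and their part in the level of Jak3 was not tested.

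Stat2, which acts in interferon signaling, rose at 72 in young liver (0.84, adjusted p 0.00844) and in old liver (0.77, adjusted p 0.0188). In young liver the Stat2 call was lost without young before replicate 3 (0.72, adjusted p 0.0537) or young 72 replicate 1 (0.66, 0.0678) and over libraries without Y-linked transcripts (0.83, 0.0509), and in old liver without old before replicate 3 (0.66, 0.109) or old 72 replicate 3 (0.65, 0.0986) and over libraries without Y-linked transcripts (0.69, 0.125). Stat5b, the STAT of growth hormone signaling in liver, fell by 0.61 in old liver at 48 (adjusted p 0.0259). That call was lost under 7 of 15 alternatives, among them without old before replicate 1 (-0.54, adjusted p 0.0799) or 3 (-0.60, 0.0749) and without old 48 replicate 1 (-0.52, 0.105) or 2 (-0.47, 0.147). Tyk2, Stat5a and Stat6 were called in no comparison. Stat3 and Stat5a share 72 exon bases on opposite strands, 0.76% of the Stat3 exon length.

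Of 15 genes for feedback inhibitors other than Socs3, 14 were tested and Socs1 was too low. Of the 14, 1 was called higher at young 48, 1 lower at young 72, and 1 higher and 1 lower at old 48, where 22.1%, 17.5% and 24.3% of all tested genes were called. Socs2, Socs4, Socs5, Socs6, Socs7, Cish, Pias1, Pias3, Pias4, Ptpn2 and Ptpn6 were called in no comparison. Ptpn11, whose product SHP2 binds gp130, measured 126, 130 and 130 CPM in old before and 186, 281 and 158 CPM in old 48, without overlap, and rose by 0.69 on the log2 scale (adjusted p 0.00224). Without old 48 replicate 2 the rise of Ptpn11 was 0.44 (adjusted p 0.0277), and a fit of only the 2 groups gave 0.71 (adjusted p 0.143). Ptpn1 at young 48 (0.52, adjusted p 0.0469) and Pias2 at young 72 (-0.45, 0.0452) and old 48 (-0.43, 0.0415) passed narrowly, and these calls were lost under 8 or 9 of 15 alternatives each, including without any 1 of 5 or 6 of the 6 libraries compared.

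Known STAT3 target genes in liver, from acute-phase proteins to immediate early genes, were followed in a list of 29, of which 27 were tested. In young liver 5 rose and 4 fell at 48, and 6 rose and 3 fell at 72. In old liver 12 rose and 2 fell at 48, and 3 rose and 2 fell at 72. Of the 12 higher calls at old 48, 8 were kept without old 48 replicate 2, with Hif1a, Timp1, Fgg and Fgb lost, and 9 without old before replicate 2 or 3. In a fit of only old before and old 48, 2 of the 12 were kept, 9 were lost and Timp1 was not tested, and both lower calls were lost. The median log2 change of the tested genes at 48 was 0.73 in old and 0.05 in young liver, where that of all tested genes was 0.01 and -0.01. Of all tested genes 12.2% were called higher and 9.88% lower at young 48, 9.26% and 8.23% at young 72, 12.3% and 12.1% at old 48, and 6.71% and 5.92% at old 72. Averaged over time points 3 were higher in old liver and 0 lower, where 6.13% of all tested genes were called. Of these, Bcl3 (0.455, adjusted p 0.0156) was lost with a term for Y-linked transcripts (0.365, 0.146) and over libraries without them (0.353, 0.173). The interaction called none, where 2.91% of all tested genes were called.

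**Figure D5:**
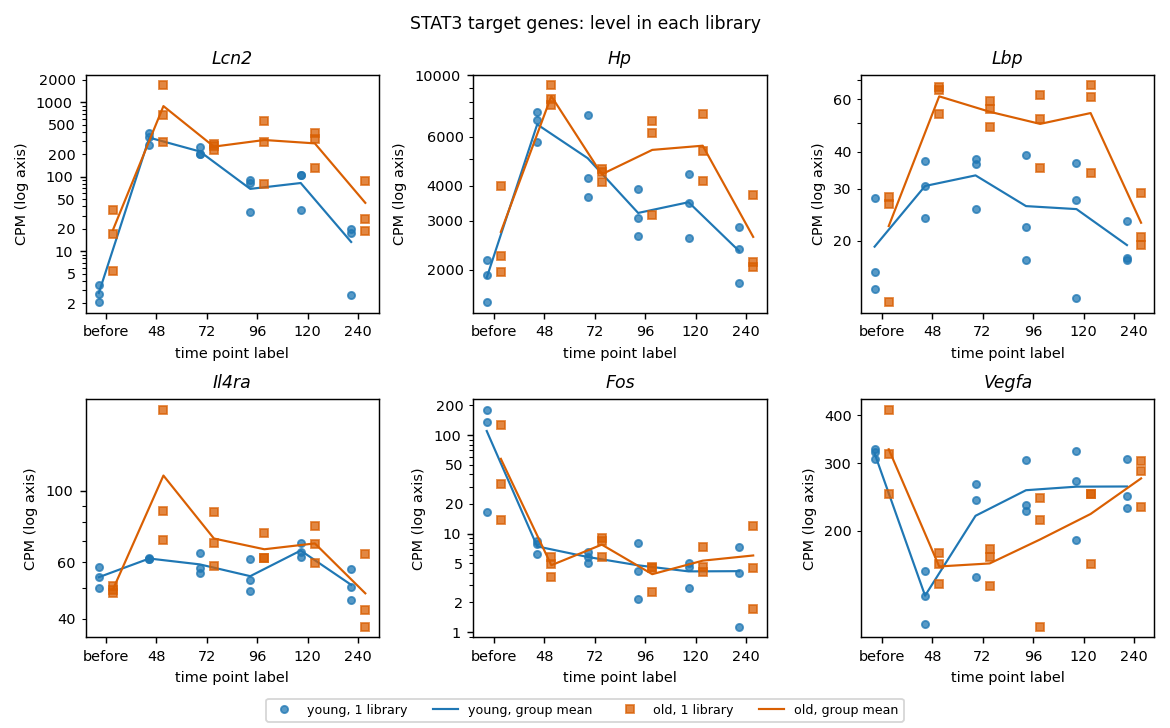
Level of 6 STAT3 target genes in CPM on log axes at the 6 time point labels, with 1 symbol per library (circles young, squares old) and lines through the means of 3 libraries. Lcn2 and Hp peak at 48 in either age, Fos drops from its level before, and 1 old 48 library (178 CPM) sets the peak of Il4ra.

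The genes named from this list were the 6 called with the smallest unadjusted p. Lcn2, which encodes the acute-phase protein lipocalin 2, measured 2.08, 3.48 and 2.66 CPM in young before and 348, 269 and 390 CPM in young 48, a rise of 6.93 ± 0.92 on the log2 scale (adjusted p 4.34e-06). In old liver Lcn2 measured 35.7, 16.8 and 5.48 CPM before and 684, 1690 and 296 CPM at 48, a rise of 5.53 ± 0.81 (adjusted p 3.87e-05). Old libraries were above young ones before regeneration without overlap (2.81, adjusted p 0.378), and the average over time points was 1.69 higher in old liver (adjusted p 0.000593). Of these Lcn2 calls none was lost by leaving out a library.

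Hp, the gene of haptoglobin, rose by 1.83 on the log2 scale at young 48 (adjusted p 0.00011) and by 1.62 at old 48 (adjusted p 0.000637). Lbp, which encodes the lipopolysaccharide binding protein, measured 12.4, 28.1 and 26.7 CPM in old before and 53.6, 64.8 and 66.1 CPM in old 48, a rise of 1.45 (adjusted p 0.00321), and was 0.70 higher in old liver on average (adjusted p 0.00254). In young liver Lbp measured 13.7, 27.9 and 15.7 CPM before and 30.7, 37.2 and 23.9 CPM at 48, with overlap (0.68, adjusted p 0.168). Il4ra, a receptor gene of IL-4, measured 50.7, 48.0 and 49.3 CPM in old before and 86.2, 178 and 70.2 CPM in old 48. Its rise was 1.18 (adjusted p 0.000442), and 0.69 (0.00658) without old 48 replicate 2. Against young liver at 48 Il4ra was 0.86 higher (adjusted p 0.00978), and without that library 0.33 (0.319). In fits of only the 2 groups compared, the old 48 calls of Hp (1.64, adjusted p 0.0677), Lbp (1.47, 0.0576) and Il4ra (1.19, 0.106) were lost, as was that of Il4ra between the ages (0.88, 0.281).

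Fos, an immediate early gene, fell, from 16.4, 180 and 134 CPM in young before to 8.33, 7.76 and 6.16 CPM in young 48 (-3.88, adjusted p 0.000183), and from 13.6, 32.2 and 127 CPM in old before to 5.78, 3.65 and 4.91 CPM in old 48 (-3.58, adjusted p 0.000853). The libraries with Y-linked transcripts were the lowest of those before in either age. Without old before replicate 3 the change of Fos at old 48 was -2.24 (adjusted p 0.027). Vegfa, the gene of a vascular growth factor, fell by 1.23 at young 48 (adjusted p 0.000525) and by 1.01 at old 48 (adjusted p 0.00388). In fits of only the 2 groups compared the old 48 calls of Fos (-3.57, adjusted p 0.0653) and Vegfa (-0.996, 0.0716) were lost.

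Of the 29 listed target genes 22 were found among the RefSeq start sites used. Of these, 3 (Irf1, Fgb and Hamp) held TTCNNNGAA in the 250 bases before any of their start sites, beside the 7.02% of all start sites. That share counts start sites and not genes, so it is not a like measure for genes with several. Of the listed feedback inhibitors 0 of 8 with a start site held the pattern, and of the further JAK and STAT genes 0 of 8. The 3 are named for that match, chosen after the values were seen, and 59 bases around each are printed to compare with the Socs3 site, 5′ to 3′ on the gene's strand with the pattern in capitals (GRCm38.p6, RefSeq). The stretches are chr11:53769899-53769957 on the plus strand for Irf1, which encodes an interferon regulatory factor, chr3:83049992-83050050 on the minus strand for Fgb, which encodes the fibrinogen beta chain, and chr7:30944093-30944151 on the minus strand for Hamp, which encodes the iron hormone hepcidin.
Irf1: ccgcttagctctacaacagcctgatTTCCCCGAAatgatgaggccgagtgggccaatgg
Fgb: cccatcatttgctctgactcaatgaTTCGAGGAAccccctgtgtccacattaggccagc
Hamp: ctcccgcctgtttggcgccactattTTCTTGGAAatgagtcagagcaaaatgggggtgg
Of the 3, Fgb rose by 0.99 on the log2 scale at old 48 (adjusted p 0.014), a call lost without old before replicate 2 (0.93, 0.0581) or 3 (0.90, 0.0651), without old 48 replicate 2 (0.76, 0.0797) and in a fit of only the 2 groups (1.01, 0.146). Fgb was also among the genes most like Socs3 over the group means. Irf1 and Hamp were called in no comparison.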

How the data were processed

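Total RNA of mouse liver was sequenced in 36 libraries, 3 for each of 2 ages and 6 time points. Per the labels' protocols, RNA was treated with DNase and depleted of ribosomal RNA, so unspliced RNA is included, and ERCC spike-in RNA was added, which was not used here for scaling. The submitters' processing notes name STAR 2.7.5b, featureCounts, Trimmomatic 0.39, SAMtools 1.10 and the builds GRCm38 and mm10, without their roles; annotation, strand setting and filters were not given in the sources used here. The authors deposited raw counts, whole numbers for each gene symbol, in 1 table per library.

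Tests used edgeR 4.0.16 (R 4.3.3) with TMM scaling, filterByExpr on the 12 groups, 1 quasi-likelihood fit of all libraries with 1 mean per group, and Benjamini-Hochberg adjustment over all tested genes within each comparison. A call is an adjusted p under 0.05. The common biological coefficient of variation was 24.7%, which limits small changes with 3 libraries per group. The same steps were tested on simulated data. Promoter sequences came from RefSeq (GRCm38.p6, 8 of 8 genes matched) and gene models from GENCODE.

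The genes and lists were chosen with earlier results of these data known. Named were the 8 genes, every gene of the lists of ligands, other receptors, JAKs, STATs and feedback inhibitors, the 6 called STAT3 target genes with the smallest unadjusted p, and the 2 genes most like each member over group means. Some listed genes are not reported here. The settings varied were the scaling (median of ratios, total counts), no filter, a replicate block, a term for or exclusion of libraries with Y-linked transcripts, fits of only the groups compared, DESeq2 1.42.0, each library left out, and, added after seeing the data, robust spread estimation.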

Additional observations from a re-analysis of the deposited data

How the results depend on the processing

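The young calls against before numbered 4 in the design described and 0 to 5 with 1 library left out. The old calls numbered 3, with 1 to 5 when a library was left out and 1 in fits of only the groups compared. That 1 was Osmr at old 72 (0.81, adjusted p 0.0339), and the 3 old calls of the design described were all lost in these fits. Calls between the ages at single time points numbered 0, with 0 to 2 when a library was left out, 1 with a term for Y-linked transcripts and 1 by DESeq2. Averaged over time points there was 1 call, with 0 to 2 when a library was left out, 2 with total-count scaling, 2 by DESeq2, and 0 with no filter on low counts, with a term for Y-linked transcripts or over libraries without them. The interaction called 0 throughout, 0 to 0 with a library left out. Total-count scaling shifted the median log2 change of all genes by 0.20 at young 72, 0.11 at young 96, 0.09 at young 120 and 0.12 at old 72.

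Counts of called genes among all tested ones that moved by over 1.5 times were as follows. In fits of only the groups compared, against before, they went from 3269 to 225 at old 48, 1696 to 989 at old 72, 920 to 458 at old 96, 544 to 167 at old 120, 19 to 0 at old 240, 193 to 482 at young 96 and 80 to 219 at young 120. Between the ages these fits took them from 1530 to 1 at 48, 8 to 3 before and 2 to 0 at 240. Over libraries without Y-linked transcripts they went from 2973 to 1627 at young 48, 193 to 61 at young 96, 920 to 573 at old 96, 544 to 1001 at old 120, 19 to 8 at old 240, 824 to 526 for the average between the ages and 391 to 108 for the interaction. A term for Y-linked transcripts gave 517 for that average, 121 at young 120 and 29 at old 240, and total-count scaling gave 8 at old 240. DESeq2 gave 733 for the interaction, 394 at young 96, 186 at young 120 and 54 at old 240. Between the ages at 96, where 54 genes were called, the settings gave 21 to 230, and at the time points with 0 to 11 calls they gave 0 to 55.

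Replicate numbers recur in every group and the labels do not tie them to animals. Same-numbered libraries deviated together with a mean r of 0.06 over 90 pairs of the same age (-0.38 to 0.58) and 0.06 over 18 pairs of the same time point, so the numbers were not taken to pair the samples. With the replicate block the calls were 4 in young and 3 in old liver against before, 0 at single time points, 2 averaged over time points (Osmr added) and 0 for the interaction.

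Over 144 single results of the 8 genes and 2624 alternatives, 2550 kept their side of the threshold and direction of call. A call was lost in 53, gained in 21 and reversed in 0, and 148 uncalled values changed sign. Most of the 144 results were not called, so most of the 2550 were uncalled values that stayed uncalled. The 53 losses all fell on called results. These were 4 in young and 3 in old liver against before, and 1 averaged over time points. Among the listed genes only called results were followed, and 129 of their 1149 alternatives lost a call. The counts for the 8 genes and for the listed genes are therefore not on a like base. The 1 reversal was Hif1a at old 48, outside the naming rule and given for that, which was 0.90 above before (adjusted p 0.025) and -0.025 without old 48 replicate 2 (adjusted p 0.934), with 1.29 the highest value when a library was left out. Counts as low as 24 for Osmr limit what depth can show. Of the 10 ligand genes 2 were tested, and the others were too low to test.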

Other observations

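Of the paralogs of Pim1, chosen for this description after their values were seen, Pim3 fell in young liver while Pim1 was not called. Pim3 measured 290, 342 and 192 CPM in young before, 104, 101 and 97.1 CPM in young 48, and 86.2, 62.5 and 145 CPM in young 72, without overlap. Its log2 change was -1.45 at 48 (adjusted p 0.0135, edgeR) and -1.49 at 72 (adjusted p 0.015). The call of Pim3 at 48 was lost without young before replicate 2 (-1.26, adjusted p 0.0587), young 48 replicate 3 (-1.41, 0.0575) and over libraries without Y-linked transcripts (-1.36, 0.0749), and that at 72 without young before replicate 2 (-1.30, 0.0599), young 72 replicate 1 (-1.40, 0.0705) or 2 (-1.25, 0.0919). In old liver Pim3 measured 88.5, 141 and 306 CPM before and 101, 223 and 72.8 CPM at 48 (-0.43, adjusted p 0.466). Pim2 was low, at 1.14 to 4.58 CPM over all libraries, and was called in no comparison.

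The serum amyloid genes Saa1 and Saa2, acute-phase genes also chosen after their values were seen, are near-identical copies whose reads may be split between them. Saa1 measured 49.9, 17.7 and 35.6 CPM in young before and 1790, 1756 and 1304 CPM in young 48, a log2 rise of 5.55 (adjusted p 0.000862). In old liver Saa1 measured 257, 53.8 and 26.0 CPM before and 1129, 1696 and 1056 CPM at 48, a rise of 3.53 (adjusted p 0.0164), which was lost without old before replicate 2 (3.19, 0.0771) or 3 (3.07, 0.0818) and in a fit of only the 2 groups compared (3.54, 0.0716). Saa2 rose by 6.498 at young 48 (adjusted p 0.000757) and by 4.74 at old 48 (adjusted p 0.00657). Whether these rises differed between the ages was covered by the interaction test, which called no gene of the target list.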
